A study of Rattus norvegicus with 21 samples.

Results

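Sodium channel genes were followed in rat forebrain astrocytes, fresh and in culture. The 7 genes are Scn7a, Scn1a, Scn2a, Scn3a, Scn2b, Scn3b and Asic1, out of 14217 genes analysed here through at least 1 probe set of a single gene symbol. They were taken as a list of names, and every probe set whose only symbol is 1 of the 7 was used, 12 in all. The lead probe set of a gene is the one with the highest mean over all arrays. Scn7a was chosen by its measured rise from fresh cells to HBEGF culture at both ages, so its values in those arrays are a description without a test. The other 6 were added as its relatives, with results of these arrays known.

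The 21 arrays hold 7 groups of 3 from Sprague Dawley rats. Withdrawn P7 cultures were cells of postnatal day 7 isolated by panning on the integrin ITGB5, grown for 7 days in 10% foetal calf serum, washed, and kept for 7 more days with HBEGF in place of serum. Serum P7 cultures stopped after the 7 days in serum. HBEGF P7 cultures were panned P7 cells grown for 7 days without serum in medium with 5 ng/ml HBEGF, a ligand of the EGF receptor. MD cultures came from forebrain of P1 rats, prepared with the McCarthy and de Vellis procedure instead of panning, and spent 7 days in 10% serum. HBEGF P1 cultures were panned P1 cells in the same HBEGF medium, and fresh P7 and fresh P1 cells were lysed after panning without culture. The labels call the arrays biological replicates and do not say whether they came from separate litters, so the p-values measure the spread between these arrays. For the HBEGF P7 cultures 1 label says p1, but they are grouped here as P7, as in their titles and source names. MD and serum P7 cultures differ in age as well as in preparation, and withdrawn and HBEGF P7 cultures differ in days of culture as well as in serum.

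Voltage-gated sodium channels consist of a large pore-forming alpha subunit and small beta subunits that sit beside it. The alpha subunits open on depolarisation and carry the upstroke of the action potential in neurons and muscle. The beta subunits change gating and surface level and, having an immunoglobulin-like fold outside the cell, also act in adhesion. Scn7a encodes the atypical alpha subunit Nax, which was first cloned as a glial sodium channel in rat. In mouse, Nax works in glia of the sensory circumventricular organs as a sensor of extracellular sodium rather than as a voltage-gated channel. Asic1 belongs to another family, the acid-sensing ion channels, which admit sodium when protons bind outside the cell.

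Astrocyte markers were read first. Of 12 astrocyte markers, 11 were analysed here, and 9 to 11 of them lay above the array median on each of the 21 arrays. Their summed intensity per array was 120380 to 150432 in withdrawn P7, 125224 to 139974 in serum P7, 111956 to 139824 in HBEGF P7, 66703 to 80136 in MD and 121255 to 135817 in HBEGF P1 cultures, against 148467 to 154820 in fresh P7 and 110848 to 122197 in fresh P1 cells. MD cultures had the lowest sums of the 7 groups. Against fresh P1 cells, 6 of the 11 were called lower and 0 higher in MD cultures (19.6% of all genes called). HBEGF P1 cultures had 2 lower and 2 higher (8.87%). Against fresh P7 cells 0 were called higher. Called lower were 4 in withdrawn P7 (22.1%), 3 in serum P7 (18.2%) and 4 in HBEGF P7 cultures (10.3%). Most fibroblast and meningeal markers, given below, also lay above the array median outside MD cultures. Spearman correlations within groups lay between 0.963 and 0.994.

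The 7 lead probe sets differed in how their log2 intensity varied over the groups. Scn7a lay higher on every cultured array than on the fresh ones, Scn2b was called higher in the 3 kinds of P7 culture against fresh P7 cells, Scn3b was lower where P7 cells had met serum, and Asic1 was high in HBEGF P1 cultures. Scn1a, Scn2a and Scn3a lay low on every array, and no comparison of theirs was called. Calls in the text need both a limma adjusted p under 0.05 and a log2 change of 1 or more in either direction.

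**Figure D1:**
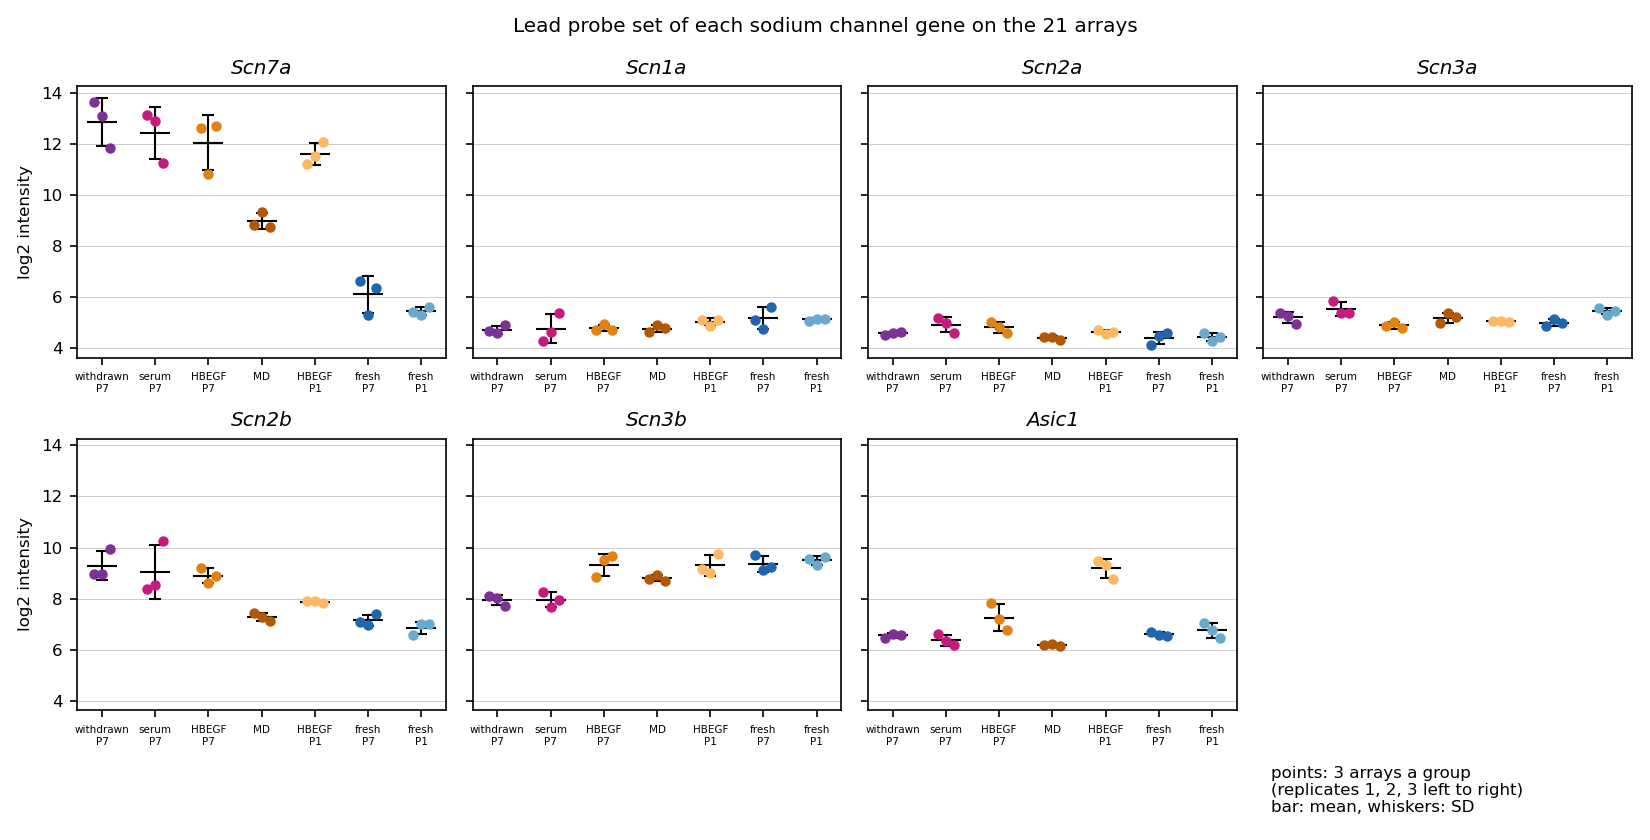
Log2 intensity (y axis) of the lead probe set of each of the 7 genes on the 21 arrays, by group (x axis), with the mean and SD of 3 arrays as bar and whiskers. Scn7a spans 5.30 to 13.63, while Scn1a, Scn2a and Scn3a stay between 4.12 and 5.84 on all arrays.

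Counted over the 6 genes other than Scn7a, the calls were few. Asic1 was the 1 gene called in HBEGF P1 cultures against fresh P1 cells, where 8.87% of all 14217 genes were called in either direction. Scn2b was the 1 gene in HBEGF P7 cultures against fresh P7 cells, against 10.3% of all genes. Asic1 was the 1 gene in HBEGF P7 against HBEGF P1 cultures, where 1.11% of all genes were called, and in MD against HBEGF P1 cultures, where 18.4% were. The same gene was the 1 call in the test of the difference between ages, against 0.816% of all genes. A single call is the smallest count above 0 that 6 genes can give. It lies near the share of all genes in MD against HBEGF P1 cultures and above it in the other 4 comparisons.

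Scn3b was the 1 gene called in serum P7 and in withdrawn P7 cultures against HBEGF P7 cultures, against 9.3% and 11.7% of all genes. Scn2b and Scn3b were the 2 called in serum P7 and in withdrawn P7 cultures against fresh P7 cells, against 18.2% and 22.1% of all genes. Scn2b was the 1 called in serum P7 against MD cultures, where 13.9% of all genes were called. In fresh P7 against fresh P1 cells limma called 0 of the 6, against 1.55% of all genes, and 1 had an unadjusted p under 0.05. In MD cultures against fresh P1 cells it called 0, against 19.6%, with 2 at an unadjusted p under 0.05. In withdrawn against serum P7 cultures it called 0, against 4.5%, again with 2. The median log2 change of the 6 lay between -0.38 and 0.27 over the 13 comparisons, against -0.07 and 0.11 for all genes.

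**Figure D2:**
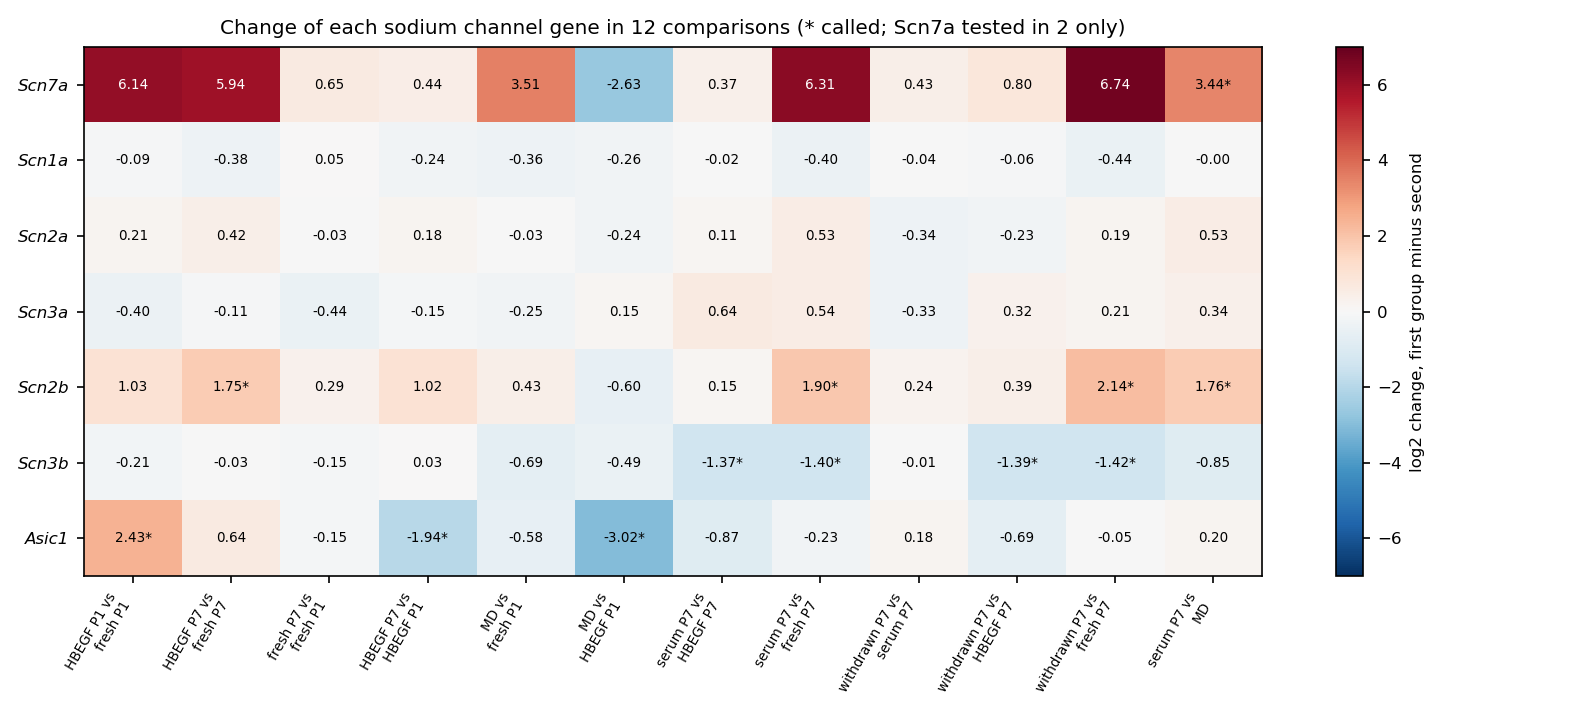
Log2 change of the lead probe set of each of the 7 genes (rows) in 12 comparisons of 2 groups (columns, first group minus second), coloured by size and with an asterisk where called. Scn7a was tested in the withdrawn against serum and the serum against MD comparison only.

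Scn7a was read by 1 probe set, 1370973_at. Its log2 intensity was 13.63, 13.09 and 11.82 in withdrawn P7 cultures and 13.12, 12.88 and 11.23 in serum P7 cultures. It was 12.62, 10.80 and 12.70 in HBEGF P7 cultures, against 6.64, 5.30 and 6.37 in fresh P7 cells. It was 8.82, 9.34 and 8.75 in MD cultures and 11.21, 11.51 and 12.08 in HBEGF P1 cultures, against 5.43, 5.32 and 5.62 in fresh P1 cells. The 15 cultured arrays all lay above the 6 fresh ones, and the 3 MD arrays lay below the other 12 cultured ones. In order, the group means were 12.84 ± 0.93 in withdrawn P7, 12.41 ± 1.03 in serum P7, 12.04 ± 1.08 in HBEGF P7, 11.60 ± 0.44 in HBEGF P1 and 8.97 ± 0.32 in MD cultures, then 6.11 ± 0.71 in fresh P7 and 5.46 ± 0.15 in fresh P1 cells (SD, n = 3). Neighbours among the first 4 overlapped on single arrays, and so did the fresh pair. MD overlapped with neither of its neighbours.

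In HBEGF P1 cultures against fresh P1 cells the log2 change of Scn7a was 6.14 ± 0.56 (SE). In HBEGF P7 cultures against fresh P7 cells it was 5.94 ± 0.56. These comparisons chose the gene and carry no test. Against the same fresh P7 cells, withdrawn P7 cultures gave 6.74 and serum P7 cultures 6.31. MD cultures against fresh P1 cells gave 3.51, and against HBEGF P1 cultures -2.63. These comparisons share fresh or HBEGF arrays with the choice of the gene, so they are given side by side only. The fresh readings of Scn7a, 5.30 to 6.64, lie under the median of all log2 values, 7.11, and whether they are above background is not given in the sources used here, so the changes against fresh cells carry no exact fold.

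The groups that had no part in the choice of Scn7a allow 2 tests. Their SE still draws on the spread within all 7 groups, which include those that chose the gene. Serum P7 cultures were higher than MD cultures by 3.44 ± 0.56 on the log2 scale, 10.9-fold (95% interval 2.26 to 4.62, limma adjusted p = 0.000215), with all 3 serum arrays above all 3 MD arrays. The change of withdrawn against serum P7 cultures was 0.43 (95% interval -0.75 to 1.61, limma adjusted p = 0.772), with overlapping arrays. These arrays pair by replicate number, and Scn7a was higher in the withdrawn array of all 3 pairs, by 0.51, 0.20 and 0.59. With the number as a block the limma adjusted p was 0.741. That block is common to all 7 groups, so it does not take out the differences between these pairs alone. An exact two-sided permutation test over the 3 pairs, added after the values were seen, gave p = 0.25, the smallest it can give. Bulk arrays cannot tell fewer cells that express a gene from less of its RNA in each cell.

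Scn7a had the largest SD of the 7 genes in every group except serum P7 cultures, where that of Scn2b was 1.06, and fresh P1 cells, where that of Asic1 was 0.29. Replicate 3 was the lowest array in serum and in withdrawn P7 cultures, and replicate 2 in HBEGF P7 cultures and fresh P7 cells. Around their group means, withdrawn and serum P7 arrays of the same number varied together over the lead probe sets (correlations of 0.49, 0.28 and 0.52). The numbers of the fresh and HBEGF P7 arrays did not pair in this way.

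The gene sits at the end of a run of sodium channel genes. In the RefSeq table of the GRCr8 assembly, Scn1a, Scn9a and Scn7a follow each other on chromosome 3 with no other protein-coding gene between them, and Scn3a and Scn2a are direct neighbours on the same chromosome. The 250 bases before the RefSeq start of Scn7a, which rose most of the 7, and of Scn3a, which stayed low, are shown here to set both upstream regions side by side, 5′ to 3′ on the gene's strand. The Scn7a stretch is chr3:71846285-71846534 (minus strand) and lies partly inside the annotated span of the gene, whose table start is not its outermost one. The Scn3a stretch is chr3:70666199-70666448 (minus strand). Capitals mark every match to 6 motifs searched on both strands.
Scn7a: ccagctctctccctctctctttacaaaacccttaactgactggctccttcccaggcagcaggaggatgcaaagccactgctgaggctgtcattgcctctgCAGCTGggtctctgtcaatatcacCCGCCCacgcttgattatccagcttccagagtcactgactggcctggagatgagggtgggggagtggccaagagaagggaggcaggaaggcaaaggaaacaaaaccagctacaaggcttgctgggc
Scn3a: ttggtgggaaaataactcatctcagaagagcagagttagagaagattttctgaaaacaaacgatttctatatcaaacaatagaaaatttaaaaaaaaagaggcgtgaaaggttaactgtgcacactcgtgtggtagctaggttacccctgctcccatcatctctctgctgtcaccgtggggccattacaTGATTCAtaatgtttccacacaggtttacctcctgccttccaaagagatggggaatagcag
The Scn7a stretch holds 1 GC box (GGGCGG, here on the other strand), present in 30.5% of 33469 RefSeq promoter windows of this length, and 1 E-box (CANNTG, in 65.5%). The Scn3a stretch holds 1 AP-1 site (TGANTCA, in 6.34%). The TATA box (TATAAA, in 12.9%) and the half-sites of RE1, the element bound by the neuronal gene repressor Rest (AGCACC in 13.5% and GGACAG in 18.2%), had no match in either. Such matches are letters in a window, and the arrays did not measure binding.

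Rest itself was not called in any comparison. Its group means lay between 5.24 in HBEGF P1 cultures and 5.67 in fresh P7 cells.

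The neuronal alpha subunits gave low and nearly flat readings. Scn1a, the channel of many inhibitory neurons, read 4.69, 4.60 and 4.90 in withdrawn P7, 4.30, 4.62 and 5.39 in serum P7 and 4.71, 4.94 and 4.73 in HBEGF P7 cultures, against 5.12, 4.77 and 5.62 in fresh P7 cells. In MD cultures it read 4.63, 4.90 and 4.79 and in HBEGF P1 cultures 5.10, 4.88 and 5.12, against 5.07, 5.15 and 5.15 in fresh P1 cells. Its group means ran from 4.73 in withdrawn P7 over 4.77 in serum P7, 4.77 in MD, 4.79 in HBEGF P7 and 5.03 in HBEGF P1 cultures to 5.13 in fresh P1 and 5.17 in fresh P7 cells. All groups next to each other in that order overlapped on single arrays.

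Scn2a, an axonal alpha subunit of excitatory neurons, averaged 4.93 ± 0.29 in serum P7, 4.82 ± 0.23 in HBEGF P7, 4.64 ± 0.08 in HBEGF P1, 4.59 ± 0.06 in withdrawn P7 and 4.40 ± 0.06 in MD cultures, against 4.43 ± 0.15 in fresh P1 and 4.40 ± 0.25 in fresh P7 cells (SD, n = 3). Groups next to each other in level overlapped. Serum P7 cultures and fresh P7 cells did not overlap, at 5.19, 4.98 and 4.62, against 4.12, 4.50 and 4.58. The change was 0.53 (limma adjusted p = 0.0106), and against MD cultures it was also 0.53 (limma adjusted p = 0.0153). Both lie under the fold limit of the call.

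Scn3a, an alpha subunit of embryonic and early postnatal neurons, read 5.84, 5.37 and 5.40 in serum P7 cultures, against 4.87, 5.04 and 4.78 in HBEGF P7 cultures and 4.85, 5.14 and 5.00 in fresh P7 cells. The serum arrays lay above all 6 of the others. The changes were 0.64 (limma adjusted p = 0.00436) and 0.54 (limma adjusted p = 0.00737), again under the fold limit. Withdrawn P7 cultures, at 5.39, 5.27 and 4.96, overlapped with serum P7 cultures. Every fresh P7 array lay below the fresh P1 arrays, at 5.56, 5.32 and 5.46, with a change of -0.44 (limma adjusted p = 0.109). MD cultures read 4.99, 5.37 and 5.23, and HBEGF P1 cultures 5.07, 5.05 and 5.02. Groups next to each other in mean level overlapped.

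The highest group mean of each of these 3 genes was 5.17, 4.93 and 5.54 for Scn1a, Scn2a and Scn3a, below the median of all log2 values, 7.11. They did not reach the level at which a probe set stays in when dim ones are left out.

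The beta subunit Scn2b rose in cultures of P7 cells. Its lead probe set, 1396405_at, read 8.98, 8.95 and 9.94 in withdrawn P7, 8.37, 8.52 and 10.27 in serum P7 and 9.18, 8.62 and 8.91 in HBEGF P7 cultures, against 7.10, 6.95 and 7.40 in fresh P7 cells. In MD cultures it read 7.45, 7.27 and 7.14 and in HBEGF P1 cultures 7.90, 7.90 and 7.85, against 6.57, 6.99 and 7.01 in fresh P1 cells. Every array of the 3 kinds of P7 culture lay above every other array. The order of means was 9.29 in withdrawn P7, 9.05 in serum P7, 8.90 in HBEGF P7, 7.89 in HBEGF P1 and 7.29 in MD cultures, then 7.15 in fresh P7 and 6.86 in fresh P1 cells. Neighbours overlapped among the 3 kinds of P7 culture, between MD cultures and fresh P7 cells, and between the fresh groups.

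Scn2b was called higher in all 3 kinds of P7 culture against fresh P7 cells. The change was 2.14 ± 0.37 in withdrawn P7 cultures (4.41-fold, limma adjusted p = 0.000169). In serum P7 cultures it was 1.90 ± 0.37 (3.73-fold, limma adjusted p = 0.000592). Without serum replicate 3, the highest array, it was 1.29 and still called. In HBEGF P7 cultures it was 1.75 ± 0.37 (3.37-fold, limma adjusted p = 0.00212). With both Scn2b probe sets averaged the 3 changes were 1.21, 1.17 and 0.98, the last under the fold limit. These 3 comparisons share the fresh P7 arrays.

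Serum P7 cultures were also higher than MD cultures, by 1.76 ± 0.37 (3.40-fold, limma adjusted p = 0.00171), with no overlap. Without serum replicate 3 that change was 1.16, and with both probe sets averaged 1.12, each still called. In HBEGF P1 cultures against fresh P1 cells the Scn2b change was 1.03, with no overlap, and missed the call (limma adjusted p = 0.0589). With the replicate number as a block the limma adjusted p was 0.0353 and the change was called. That block is a number effect common to all 7 groups. The numbers paired for these arrays but not in every comparison, so the data bear out the block only in part. HBEGF P7 against HBEGF P1 cultures gave 1.02 (95% interval 0.24 to 1.79, limma adjusted p = 0.249). The difference of the HBEGF effect between P7 and P1 cells was 0.72 (95% interval -0.37 to 1.82, limma adjusted p = 0.665).

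The second probe set of Scn2b, 1369311_at, was dim, between 4.64 and 5.53 on single arrays, and was not called. Its direction was the same in serum P7 cultures against fresh P7 cells, 0.43 (limma adjusted p = 0.0143), and against MD cultures, 0.48 (limma adjusted p = 0.0103). HBEGF P7 and withdrawn P7 cultures also averaged above fresh P7 cells. HBEGF P1 cultures averaged 5.00, against 4.98 in fresh P1 cells and 5.02 in HBEGF P7 cultures. The differences of the lead probe set in these comparisons were nearly absent here. In withdrawn against serum P7 cultures the means went the other way from the lead probe set. The same held for MD cultures and fresh P7 cells, each against fresh P1 cells.

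Scn2b lies beside Scn4b, another beta subunit, on chromosome 8, with no protein-coding gene between them in the RefSeq table of GRCr8. Over the 21 arrays, Scn4b was among the 3 genes whose pattern was most like that of Scn2b, with a Pearson correlation of 0.948. Their upstream regions are shown because the neighbours moved alike, that of Scn2b from chr8:54322133-54322382 (plus strand) and that of Scn4b from chr8:54343623-54343872 (plus strand). Capitals again mark motif matches.
Scn2b: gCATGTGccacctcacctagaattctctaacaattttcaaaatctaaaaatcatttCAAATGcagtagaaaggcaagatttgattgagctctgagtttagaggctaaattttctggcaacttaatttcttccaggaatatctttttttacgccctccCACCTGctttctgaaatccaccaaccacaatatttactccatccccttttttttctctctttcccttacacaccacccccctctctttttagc
Scn4b: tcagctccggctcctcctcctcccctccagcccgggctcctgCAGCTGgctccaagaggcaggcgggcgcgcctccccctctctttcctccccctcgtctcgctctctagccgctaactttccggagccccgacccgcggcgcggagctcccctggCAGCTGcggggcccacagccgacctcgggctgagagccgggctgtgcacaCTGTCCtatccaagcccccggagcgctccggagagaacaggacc
Scn2b holds 3 E-boxes and Scn4b holds 2, a motif found in 65.5% of all windows. Scn4b also holds 1 right RE1 half-site on the other strand (GGACAG, in 18.2%). The GC box, TATA box, AP-1 site and left RE1 half-site had no match in either stretch.

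Scn4b averaged 7.87 ± 0.90 in withdrawn P7, 7.46 ± 1.57 in serum P7, 7.39 ± 0.18 in HBEGF P7, 5.23 ± 0.24 in MD and 6.43 ± 0.24 in HBEGF P1 cultures, against 5.72 ± 0.28 in fresh P7 and 5.59 ± 0.45 in fresh P1 cells (SD, n = 3). It was called higher in withdrawn P7 cultures against fresh P7 cells, by 2.16 (limma adjusted p = 0.00408). Serum P7 cultures against MD cultures gave 2.22 (limma adjusted p = 0.00569), and 1.32 without serum replicate 3, still called. The rises in serum P7 cultures, 1.74 (limma adjusted p = 0.0185), and in HBEGF P7 cultures, 1.68 (limma adjusted p = 0.0341), against fresh P7 cells were less firm. The serum call was lost without fresh P7 replicate 3 or serum replicate 3, and the HBEGF call without any 1 of its 6 arrays.

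**Figure D3:**
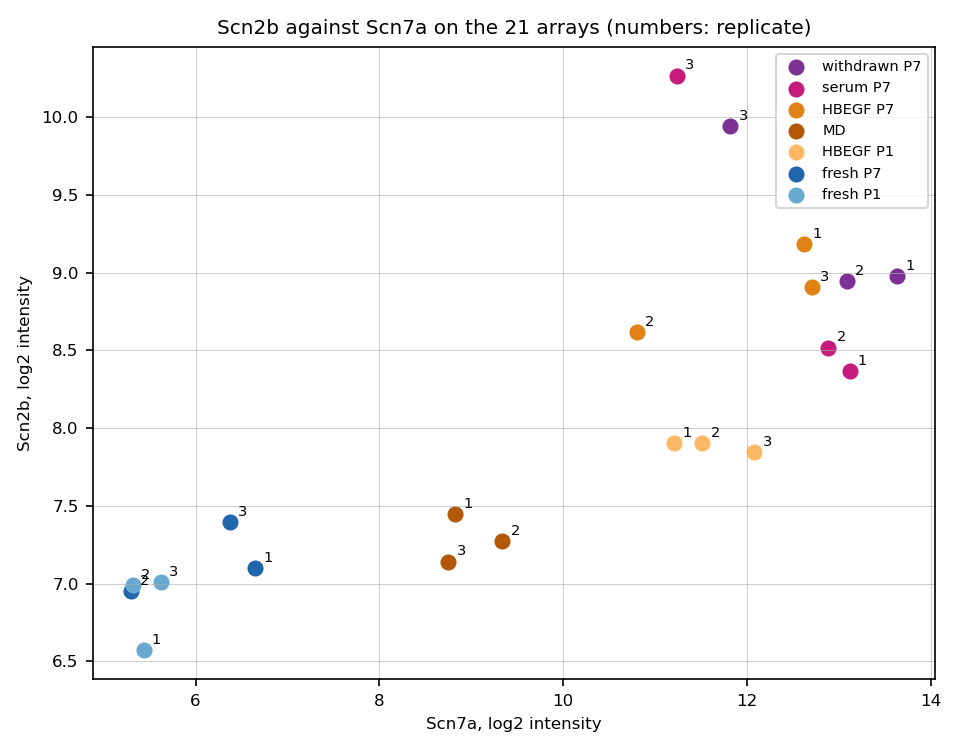
Log2 intensity of Scn2b (y axis) against Scn7a (x axis), each point 1 array coloured by group and numbered by replicate. Replicate 3 of serum P7 and of withdrawn P7 cultures has the lowest Scn7a of its group (11.23 and 11.82) and the highest Scn2b (10.27 and 9.94).

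Scn7a and Scn2b were both high in the P7 cultures. Within the groups they did not always go together. Replicate 3 of the serum and of the withdrawn P7 cultures had the lowest Scn7a and the highest Scn2b of its group, as the plot of the 2 genes shows. In HBEGF P7 cultures and fresh P7 cells, replicate 2 was the lowest array for both genes. MD cultures had Scn7a 3.51 above fresh P1 cells, while their Scn2b change was 0.43 (95% interval -0.34 to 1.21, limma adjusted p = 0.388).

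Markers of other cells were read beside these genes. All 9 fibroblast and meningeal markers were measured. Their summed intensity was 53640 to 77481 in withdrawn P7, 72893 to 93772 in serum P7 and 21419 to 41279 in HBEGF P7 cultures, against 8319 to 16059 in fresh P7 cells. In MD cultures it was 13032 to 16993 and in HBEGF P1 cultures 10339 to 14402, against 4397 to 10007 in fresh P1 cells. Against fresh P7 cells, 8 of the 9 were called higher in withdrawn P7 cultures, where 22.1% of all genes were called in either direction. In serum P7 cultures 6 were called higher (18.2% of all genes), and in HBEGF P7 cultures 2 higher and 1 lower (10.3%). Against fresh P1 cells, MD cultures had 3 called higher and 5 lower (19.6%), with a median change of -1.26, and HBEGF P1 cultures had 1 called higher (8.87%). Between 4 and 9 of them lay above the median on each array, and the fewest were in MD cultures, where Lum averaged 4.58 and Dcn 5.34. Replicate 3 had the highest sum in both withdrawn and serum P7 cultures, 77481 and 93772.

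Summed oligodendrocyte markers (6 of 7 analysed here) were 21599, 22687 and 27568 in withdrawn P7 and 4279, 6089 and 20803 in serum P7 cultures, against 5968 to 6639 in fresh P7 cells. HBEGF P7 cultures had 7133 to 14684. HBEGF P1 and MD cultures had 8527 to 10089 and 2071 to 2336, against 4359 to 5125 in fresh P1 cells. Of the 6, only Cldn11, a tight junction protein of myelin, was called against fresh P7 cells. It gave 5.97 in withdrawn P7 (limma adjusted p = 6.67e-05), 3.65 in serum P7 (limma adjusted p = 0.00516) and 3.05 in HBEGF P7 cultures (limma adjusted p = 0.0247). Cnp went the other way under the fold limit, with -0.60 in withdrawn (limma adjusted p = 0.00215) and -0.96 in serum P7 cultures (limma adjusted p = 3.96e-05). Mbp gave -1.22 and -0.73 there and 1.64 in HBEGF P7 cultures, and was not called. In withdrawn and serum P7 cultures the changes of Mag, Mog and Mobp lay between 0.01 and 0.08. All 8 microglia markers were measured. Their sums were 1186 to 3717 in withdrawn P7, 924 to 1436 in serum P7 and 466 to 1751 in HBEGF P7 cultures. Fresh P7 cells had 857 to 1565. In withdrawn against serum P7 cultures 3 of the 8 markers were called higher and 1 lower, against 4.5% of all genes. The complement subunit C1qa gave 4.15 (limma adjusted p = 0.0026), the receptor Csf1r 2.49 (limma adjusted p = 0.00643), the lysosomal protein Cd68 2.47 (limma adjusted p = 0.0113) and Tmem119 -2.55 (limma adjusted p = 9.92e-05). Serum P7 cultures against fresh P7 cells had 1 microglia marker called higher and 3 lower (18.2% of all genes called), although their sums overlapped. Tmem119 gave 2.95 there, against -2.57 for Csf1r and -2.23 for C1qa, and P2ry12 was also called lower. Withdrawn P7 cultures against fresh P7 cells had 2 called higher and 1 lower (22.1%), and HBEGF P7 cultures 0 higher and 2 lower (10.3%). Endothelial markers (6 of 7 analysed here) summed to 463 to 787 in withdrawn, 415 to 929 in serum and 228 to 335 in HBEGF P7 cultures. Fresh P7 cells had 284 to 373. In that order of cultures 2, 1 and 0 endothelial markers were called higher against fresh P7 cells, and 1 lower in each (22.1%, 18.2% and 10.3% of all genes). Schwann cell markers (5 of 7 analysed here) summed to 10372 to 13623 in withdrawn, 7968 to 12239 in serum and 8130 to 10290 in HBEGF P7 cultures. Fresh P7 cells had 6558 to 7446, against which 0 were called higher and 1 lower in each P7 culture. MD and HBEGF P1 cultures had 5669 to 6720 and 5706 to 7866, against 8423 to 9489 in fresh P1 cells. The part of all these cells in the Scn7a, Scn2b and Scn4b values was not tested.

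Scn3b, a beta subunit of brain neurons, fell in P7 cells that had been in serum. Its lead probe set, 1383435_at, read 8.09, 8.02 and 7.71 in withdrawn P7 and 8.25, 7.67 and 7.95 in serum P7 cultures, against 8.84, 9.50 and 9.66 in HBEGF P7 cultures and 9.70, 9.12 and 9.25 in fresh P7 cells. It read 8.79, 8.93 and 8.71 in MD cultures and 9.14, 8.99 and 9.76 in HBEGF P1 cultures, against 9.57, 9.31 and 9.64 in fresh P1 cells. The 6 arrays with a history of panned cells in serum were the lowest 6 of the 21, and the 3 MD arrays lay between them and all but 1 of the rest, HBEGF P7 replicate 1. From the lowest up, the group means were 7.94 in withdrawn P7, 7.96 in serum P7, 8.81 in MD, 9.30 in HBEGF P1 and 9.33 in HBEGF P7 cultures, then 9.36 in fresh P7 and 9.51 in fresh P1 cells. Neighbours overlapped except HBEGF P1 with MD cultures and MD with serum P7 cultures.

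In withdrawn P7 cultures against fresh P7 cells the log2 change of Scn3b was -1.42 ± 0.23 (limma adjusted p = 9.82e-05). Serum P7 cultures against fresh P7 cells gave -1.40 ± 0.23 (limma adjusted p = 0.00013). Against HBEGF P7 cultures the changes were -1.39 in withdrawn (limma adjusted p = 0.000481) and -1.37 in serum P7 cultures (limma adjusted p = 0.000506). All 4 comparisons had no overlap between arrays. Withdrawn against serum P7 cultures gave -0.01 (95% interval -0.50 to 0.47, limma adjusted p = 0.988). The withdrawn arrays, 7 days after the wash, were all below the HBEGF P7 and fresh P7 arrays.

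HBEGF culture alone gave no call for Scn3b. The change was -0.03 in P7 cells (95% interval -0.51 to 0.46) and -0.21 in P1 cells (95% interval -0.69 to 0.28). MD cultures gave -0.69 against fresh P1 cells (limma adjusted p = 0.0244), and serum P7 against MD cultures -0.85 (limma adjusted p = 0.0105). Both lie under the fold limit.

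The second probe set of Scn3b, 1370850_at, showed larger falls in the same comparisons. They were -2.13 and -2.31 in withdrawn and serum P7 cultures against fresh P7 cells, and -1.90 and -2.08 against HBEGF P7 cultures, all called. For serum P7 against MD cultures it gave -1.26 (limma adjusted p = 0.0122), called here but not by the lead probe set, and lost without MD replicate 2 or serum replicate 3.

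Neuron markers went both ways in the cultures where Scn3b fell. Of 15, 14 were analysed here. Their summed intensity was 1630 to 3374 in withdrawn P7 and 2486 to 5152 in serum P7 cultures, against 3865 to 11488 in HBEGF P7 cultures and 2490 to 3424 in fresh P7 cells. In MD cultures it was 6044 to 10010 and in HBEGF P1 cultures 8027 to 12688, against 5207 to 5922 in fresh P1 cells. Against fresh P7 cells, 6 of the 14 were called lower and 1 higher in withdrawn P7 cultures (22.1% of all genes called), and 6 lower and 2 higher in serum P7 cultures (18.2%). Snap25, a synaptic vesicle fusion protein, averaged 6.38 in withdrawn P7 and 6.31 in serum P7 cultures, against 7.93 in HBEGF P7 cultures and 8.55 in fresh P7 cells. Stmn2, a microtubule regulator of growing axons, was called higher, by 4.08 in withdrawn P7 (limma adjusted p = 0.00275) and 4.71 in serum P7 cultures (limma adjusted p = 0.00105). Slc17a6, a vesicular glutamate transporter, was called higher in serum P7 cultures by 1.41 (limma adjusted p = 0.000663). The sums of serum P7 cultures overlapped with those of fresh P7 cells. Their part in the Scn3b result was not tested.

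Asic1 was high in HBEGF P1 cultures. Its lead probe set, 1371045_at, read 9.48, 9.32 and 8.78 there, against 7.04, 6.78 and 6.47 in fresh P1 cells. It read 6.47, 6.63 and 6.59 in withdrawn P7, 6.61, 6.36 and 6.18 in serum P7 and 7.82, 7.19 and 6.76 in HBEGF P7 cultures, against 6.71, 6.58 and 6.56 in fresh P7 cells. MD cultures gave 6.17, 6.21 and 6.15. The 3 HBEGF P1 arrays were the highest 3 of the 21, and the HBEGF P7 arrays lay above all fresh P7 arrays. Ordered by mean, HBEGF P1 cultures had 9.19, HBEGF P7 cultures 7.26, fresh P1 cells 6.76, fresh P7 cells 6.62, withdrawn P7 cultures 6.56, serum P7 cultures 6.38 and MD cultures 6.18. Only HBEGF P1 cultures stood clear of their neighbour, since each other pair in that order overlapped.

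In HBEGF P1 cultures against fresh P1 cells Asic1 rose by 2.43 ± 0.22 on the log2 scale (5.39-fold, limma adjusted p = 7.19e-07). HBEGF P7 cultures were lower than HBEGF P1 cultures, with a change of -1.94 ± 0.22 (limma adjusted p = 0.000409). MD cultures, from animals of the same age but in serum, gave -3.02 ± 0.22 against HBEGF P1 cultures (limma adjusted p = 3.27e-08). In P7 cells the HBEGF change was 0.64 (95% interval 0.18 to 1.10, limma adjusted p = 0.0448), under the fold limit. The test of the difference itself, the HBEGF change in P7 cells less that in P1 cells, gave -1.79 ± 0.31 (limma adjusted p = 0.0106). With all 4 probe sets of Asic1 averaged, these values were 1.39, -1.19, -1.68, 0.35 and -1.04, with the same calls. All of the called comparisons share the HBEGF P1 arrays.

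Serum P7 cultures were at -0.87 against HBEGF P7 cultures (limma adjusted p = 0.00942), under the fold limit. Without HBEGF P7 replicate 3, the lowest array of that group, the change was -1.12 (limma adjusted p = 0.00139) and was called. Withdrawn P7 cultures gave -0.69 against the same arrays (limma adjusted p = 0.03).

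**Figure D4:**
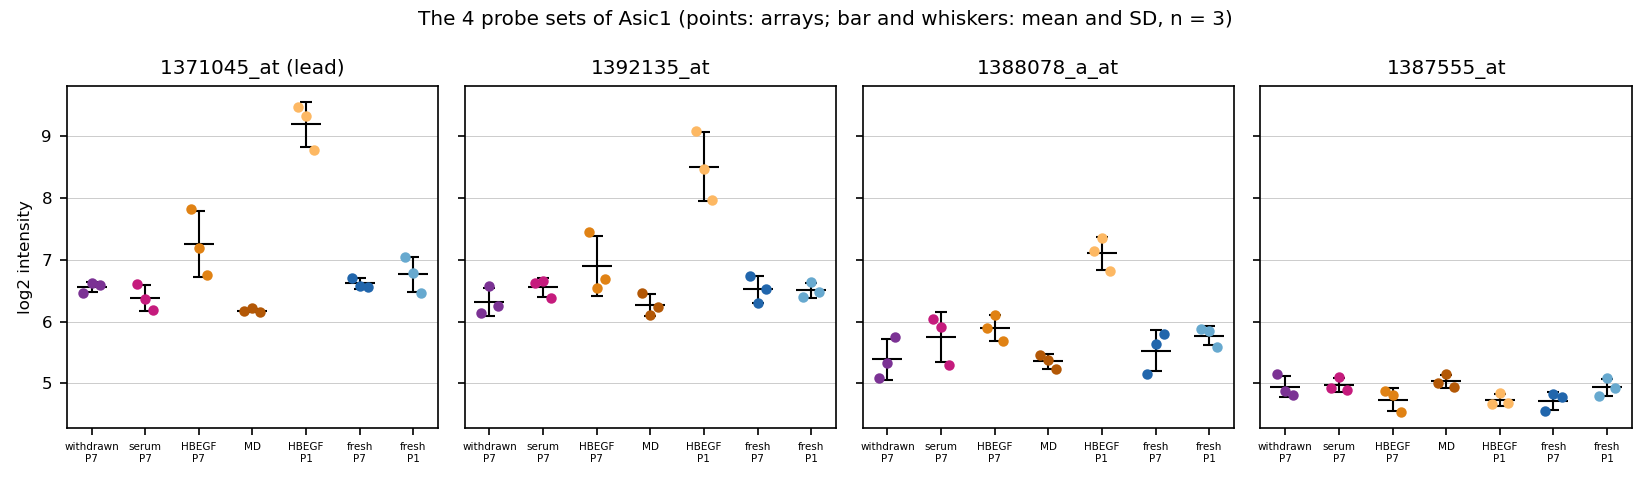
Log2 intensity (y axis) of the 4 probe sets of Asic1 on the 21 arrays, by group (x axis), with mean and SD of 3 arrays. HBEGF P1 cultures are the highest group on 3 of the probe sets, with means of 9.19, 8.51 and 7.10, and 1387555_at stays between 4.53 and 5.15.

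Asic1 has 4 probe sets, of which 3 read highest in HBEGF P1 cultures. In HBEGF P1 cultures against fresh P1 cells 1392135_at gave 2.00 (limma adjusted p = 2.14e-05) and 1388078_a_at gave 1.33 (limma adjusted p = 0.000303). HBEGF P7 against HBEGF P1 cultures gave -1.61 and -1.21, and MD against HBEGF P1 cultures -2.24 and -1.75, all called. The difference of the HBEGF change between ages was -1.63 on the first of these (limma adjusted p = 0.0391) and -0.96 on the second (limma adjusted p = 0.176). The remaining probe set, 1387555_at, was dim and was called in no comparison; its HBEGF P1 change was -0.20 (95% interval -0.46 to 0.06). Which transcripts each probe set reads is not given in the sources used here.

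Some oligodendrocyte progenitor markers rose with Asic1 in P1 cells. Of 7, 6 were analysed here, and their summed intensity was 20854 to 29676 in HBEGF P1 cultures, against 11015 to 12191 in fresh P1 cells. It was 3051 to 4892 in MD cultures and 12347 to 27468 in HBEGF P7 cultures, against 9576 to 13365 in fresh P7 cells. In HBEGF P1 cultures against fresh P1 cells 3 of the 6 were called higher (Pdgfra, Lhfpl3 and Sox10), against 8.87% of all genes, and Olig1, Olig2 and Cspg4 were not called, with changes of 0.24, -0.07 and -0.52. Pdgfra, a growth factor receptor of these progenitors, averaged 13.23 in HBEGF P1 cultures, against 9.55 in fresh P1 cells, while Olig2, a transcription factor of that lineage, averaged 6.01 in HBEGF P1 cultures and 6.09 in fresh P1 cells. Against fresh P7 cells Pdgfra was called higher as well, by 2.07 in HBEGF, 2.68 in serum and 3.55 in withdrawn P7 cultures. Asic1 was not called in these comparisons. Olig1 was called lower in serum and withdrawn P7 cultures, with -2.18 and -3.99, and Lhfpl3 in serum P7 cultures, with -2.71. The neuron marker sums, given above, were higher in HBEGF P1 cultures than in fresh P1 cells. They were higher in MD cultures too, where Asic1 had its lowest mean. Of the 14 neuron markers, 0 were called in HBEGF P1 cultures against fresh P1 cells, with a median change of 0.10. The part of progenitors and neurons in the Asic1 result was not tested.

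Other sodium channel genes, from a list of 16, were analysed here in 14 cases. The alpha subunits Scn4a, Scn8a, Scn9a, Scn10a and Scn11a, the epithelial channel subunits Scnn1a, Scnn1b and Scnn1g, and Asic3 and Asic5 were called in no comparison. Besides Scn4b, the calls fell on Asic4, Asic2 and Nalcn. The median change of the 14 lay between -0.18 and 0.10 over the 13 comparisons.

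Asic4, a relative of Asic1, averaged 6.95 ± 0.34 in HBEGF P1 cultures, against 5.61 ± 0.10 in fresh P1 cells (SD, n = 3), a rise of 1.34 (limma adjusted p = 2.43e-05). It averaged 5.56 in HBEGF P7 cultures, against 5.53 in fresh P7 cells. The changes of HBEGF P7 and of MD against HBEGF P1 cultures were -1.39 (limma adjusted p = 0.000588) and -1.51 (limma adjusted p = 2.52e-06), and the difference of the HBEGF change between ages was -1.31 (limma adjusted p = 0.0141). Asic4 was thus called in the same 4 comparisons as Asic1, each in the same direction. All 4 contain the same HBEGF P1 arrays, where both genes were high, so they are not separate agreements.

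Asic2, the other main acid-sensing subunit of brain, was low in serum P7 cultures. It averaged 6.16 ± 0.68 there, against 9.12 ± 0.63 in HBEGF P7 cultures and 7.85 ± 0.14 in fresh P7 cells (SD, n = 3). The changes were -2.96 (limma adjusted p = 0.000251) and -1.69 (limma adjusted p = 0.00749). Against MD cultures, at 8.84 ± 0.23, it was -2.68 (limma adjusted p = 0.000314). Withdrawn P7 cultures averaged 8.22 ± 1.17 and were higher than serum P7 cultures by 2.06 (limma adjusted p = 0.0105), a call lost without withdrawn replicate 1 or 2.

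Nalcn, the sodium leak channel that sets the resting potential of neurons, averaged 8.21 in withdrawn P7, 8.12 in serum P7, 9.58 in HBEGF P7, 7.25 in MD and 9.20 in HBEGF P1 cultures, against 8.55 in fresh P7 and 8.56 in fresh P1 cells. It was called lower in serum P7 and withdrawn P7 against HBEGF P7 cultures, with changes of -1.47 (limma adjusted p = 2.19e-05) and -1.37 (limma adjusted p = 5.26e-05). MD cultures gave -1.31 against fresh P1 cells (limma adjusted p = 1.23e-05) and -1.95 against HBEGF P1 cultures (limma adjusted p = 2.41e-07). The rise in HBEGF P7 cultures against fresh P7 cells, 1.03 (limma adjusted p = 0.000301), was lost without HBEGF P7 replicate 2.

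Partners of sodium channels anchor, modify or degrade them. Of 15 listed, 14 were analysed here, and 6 were called lower in withdrawn P7 and in serum P7 cultures against fresh P7 cells, where 22.1% and 18.2% of all genes were called in either direction. The other 8 were not called. The median change of the 14 was -0.57 in withdrawn P7 and -0.50 in serum P7 cultures, against 0.10 and 0.07 for all genes. Unc79, a subunit of the Nalcn complex, gave -3.96 in withdrawn P7 (limma adjusted p = 2.88e-09) and -2.67 in serum P7 cultures (limma adjusted p = 2.96e-07). Nrcam, an adhesion molecule of the axon initial segment, gave -3.40 in withdrawn P7 cultures (limma adjusted p = 3.04e-05). Nedd4l, a ubiquitin ligase that removes sodium channels from the membrane, gave -2.71 (limma adjusted p = 1.97e-08). Fgf13, an intracellular FGF that binds the tail of alpha subunits, gave -2.41 in withdrawn (limma adjusted p = 1.25e-06) and -2.36 in serum P7 cultures (limma adjusted p = 1.87e-06).

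Some partners were lower in HBEGF cultures and MD cultures too. Nedd4l gave -1.93 in HBEGF P7 cultures against fresh P7 cells (limma adjusted p = 2.4e-06). It gave -1.53 in HBEGF P1 cultures (limma adjusted p = 3.64e-05) and -1.77 in MD cultures (limma adjusted p = 2.31e-06), both against fresh P1 cells. Fgf12, a relative of Fgf13, gave -2.91 in MD cultures against fresh P1 cells (limma adjusted p = 2.84e-06). Cntn1, an adhesion molecule that binds beta subunits, went the other way in HBEGF P1 cultures, with 1.64 against fresh P1 cells (limma adjusted p = 1.54e-05).

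Of 16 listed genes of sodium transport, 11 were analysed here. The sodium bicarbonate cotransporter Slc4a4 was called lower in every kind of culture against fresh cells of its age. The changes were -1.66 in withdrawn P7, -2.14 in serum P7 and -1.79 in HBEGF P7 cultures against fresh P7 cells (limma adjusted p = 1.04e-07, 6.64e-09 and 1.1e-07). In MD and HBEGF P1 cultures they were -2.68 and -1.25 against fresh P1 cells (limma adjusted p = 4.27e-10 and 8.93e-06). Fxyd1, a regulator of the sodium pump, rose in HBEGF P1 cultures against fresh P1 cells by 2.05 (limma adjusted p = 0.00219).

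Atp1b1, a beta subunit of the sodium pump, averaged 10.69 ± 0.27 in withdrawn P7, 12.80 ± 0.41 in serum P7, 10.82 ± 1.16 in HBEGF P7, 12.56 ± 0.21 in MD and 10.83 ± 0.81 in HBEGF P1 cultures, against 12.56 ± 0.14 in fresh P7 and 12.10 ± 0.23 in fresh P1 cells (SD, n = 3). It was lower in withdrawn than in serum P7 cultures, with a change of -2.11 (limma adjusted p = 0.00708), and higher in serum P7 and MD cultures than in the HBEGF cultures of their age, by 1.98 (limma adjusted p = 0.0038) and 1.73 (limma adjusted p = 0.00473). The fall in HBEGF P1 cultures, -1.27 (limma adjusted p = 0.0497), was lost without any of 5 of its 6 arrays. The glial sodium pump beta subunit Atp1b2 gave -1.18 in MD cultures against fresh P1 cells (limma adjusted p = 0.000104) and 1.35 in serum P7 against MD cultures (limma adjusted p = 6.29e-05). The median change over the 11 lay between -0.28 and 0.24.

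**Figure D5:**
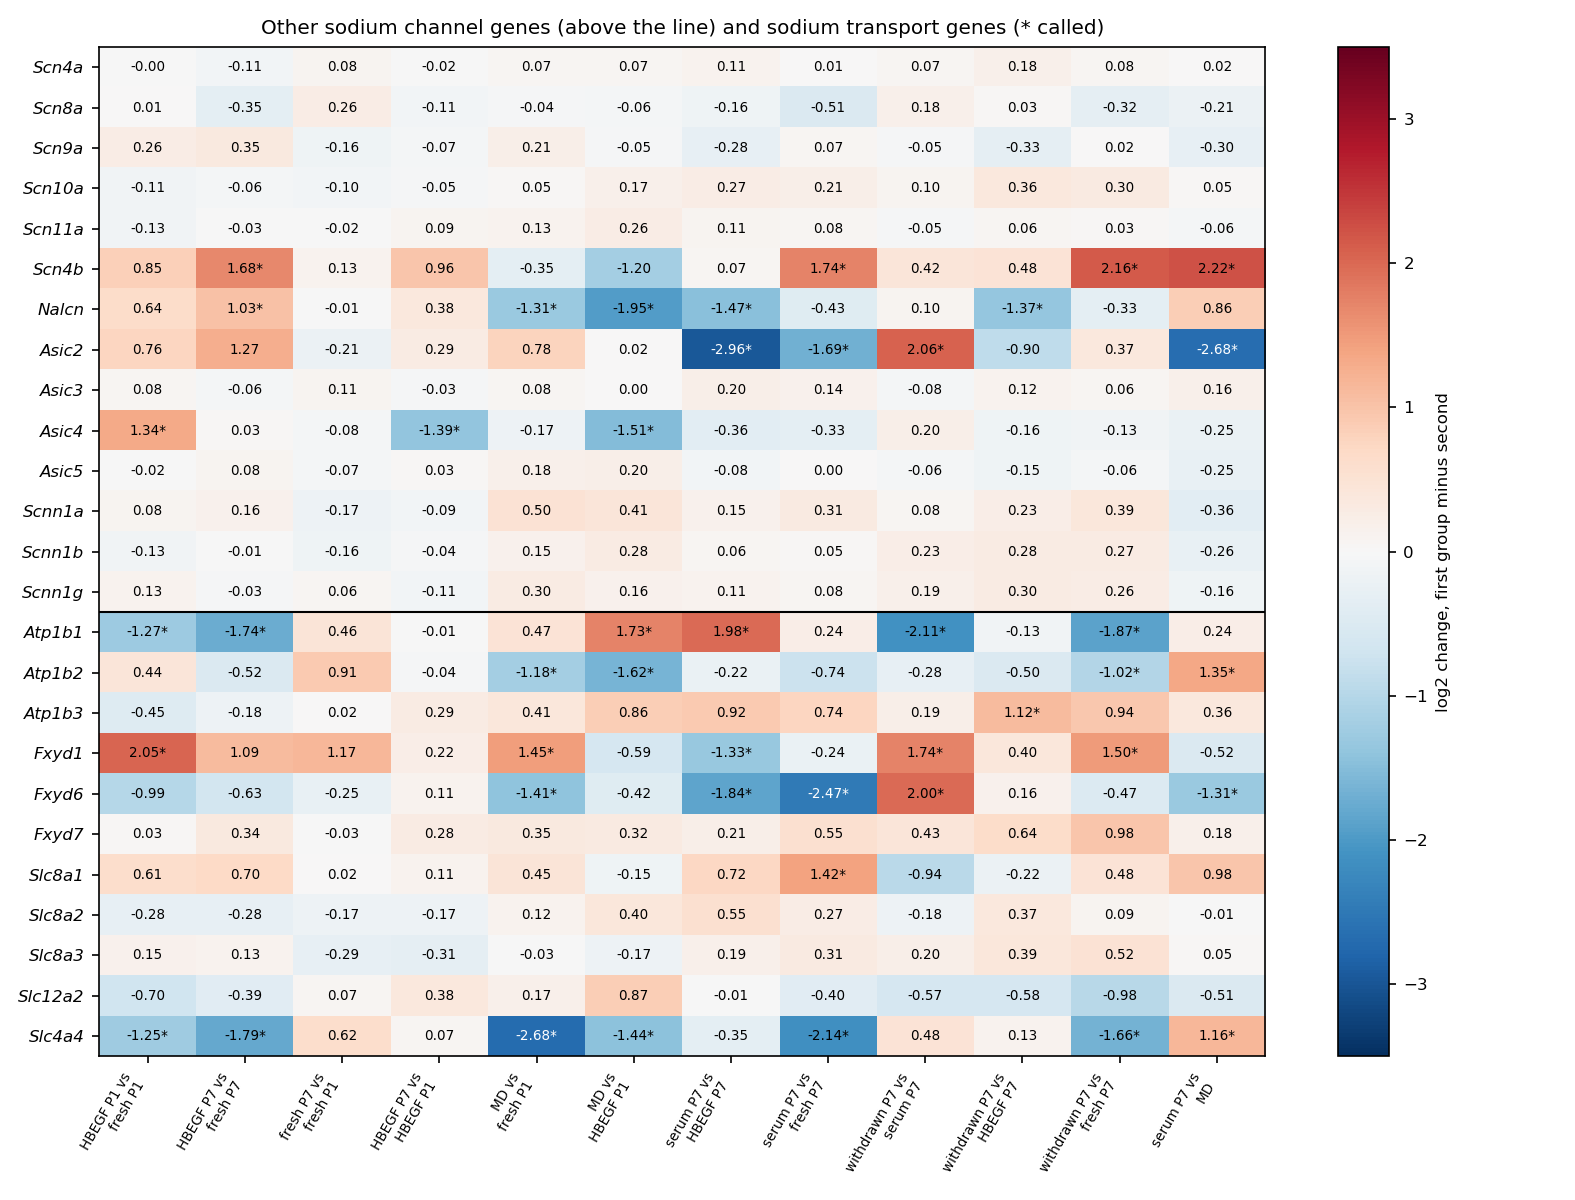
Log2 change of 14 other sodium channel genes (above the line) and 11 sodium transport genes (below it) in 12 comparisons of 2 groups (columns, first group minus second), with an asterisk where called. Asic2 in serum P7 against HBEGF P7 cultures (-2.96) and Slc4a4 in MD cultures against fresh P1 cells (-2.68) are among the strongest falls.

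In mouse, Nax is linked to the sodium pump, to the scaffold protein Dlg1, to endothelin receptor signalling and to lactate release from glia. Of 7 genes listed for these links, 4 were analysed here. Their median change lay between -0.10 and 0.81 over the 13 comparisons. Slc16a1, a lactate transporter, averaged 12.10 ± 0.62 in withdrawn P7 cultures, against 10.85 ± 0.19 in fresh P7 cells (SD, n = 3), a rise of 1.25 (limma adjusted p = 0.00818). Ldha, the lactate dehydrogenase subunit of glycolytic cells, rose in serum P7 cultures against fresh P7 cells by 1.23 (limma adjusted p = 0.000156) and in MD cultures against fresh P1 cells by 1.35 (limma adjusted p = 5.51e-05). Slc2a1, a glucose transporter, fell in HBEGF P7 cultures against fresh P7 cells, with a change of -1.46 (limma adjusted p = 0.00247), a call lost without HBEGF P7 replicate 2 (-0.96). Dlg1 was not called in any comparison, with group means of 9.72 to 10.54.

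The genes whose pattern over the 21 arrays was most like that of each member were taken from 2565 genes whose group means span at least 2 on the log2 scale. For Scn7a they were Gas6, a ligand of TAM receptor kinases (Pearson r = 0.978), Phyhd1 (0.973), the fatty acid transport protein Slc27a3 (0.962), the aminotransferase Aadat (0.958) and the tetraspanin Tspan4 (0.958). Group means of Gas6 ran from 8.69 to 12.53. For Scn2b they were Cemip, a hyaluronan-degrading protein (0.963), Scn4b (0.948) and Fkbp7 (0.940). For Scn3b they were Nup210 (0.921), Lmo3 (0.918) and Apba2 (0.900), and for Asic1 Prmt8 (0.924), Jph3 (0.922) and Lgr5 (0.916). The dim alpha subunits had less similar partners, with Mpped2 at 0.751 for Scn1a, Osgin1 at 0.736 for Scn2a and Nup62cl at 0.731 for Scn3a. The points share their 7 groups and their arrays, so these values describe likeness of pattern only.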

How the data were processed

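RNA of 21 arrays (Affymetrix rat genome, labelled with the 3' IVT Express kit per the labels' protocols) was analysed. The deposited values are intensities on the linear scale that the authors summarised by probe set with RMA, per the submitters' processing notes. Neither the RMA version nor the chip definition is given in the sources used here, and scan dates were not used. Log2 of the deposited intensities was fitted with limma 3.58.1 in R 4.3.3 (lmFit, contrasts.fit, eBayes) as 1 model of 7 group means over 31042 probe sets, with 14 residual and 2.89 prior degrees of freedom. SE and 95% intervals are moderated, and p-values were adjusted by Benjamini-Hochberg over all probe sets of a comparison. A call needed an adjusted p under 0.05 and a log2 change of 1 or more, up or down. Genes were counted through 14217 lead probe sets. The 3 arrays per group limit precision: an exact permutation test of 3 against 3 cannot go below 0.1.

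All 7 genes are described in all groups. Of the other lists, up to 4 called genes a comparison were named, by size of change, with a few genes not called. The genes, lists and tests were chosen with earlier results of these data known. Promoters are from a RefSeq promoter table (GRCr8) that holds 5 of the 7 genes. Same-numbered arrays were taken as pairs where all 3 residual correlations over lead probe sets were above 0.1. That held for 5 of the 12 comparisons: HBEGF P1 against fresh P1 (0.24 to 0.41), HBEGF P7 against HBEGF P1 (0.44 to 0.59), MD against fresh P1 (0.16 to 0.31), MD against HBEGF P1 (0.28 to 0.48) and withdrawn against serum P7 (0.28 to 0.52). The code was tested on simulated data. Alternatives were a replicate block, quantile normalization, a filter on dim probe sets, the mean over a gene's probe sets, and leaving out each array. The block was a number effect common to all 7 groups, not a pairing within a comparison.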

Additional observations from a re-analysis of the deposited data

Results flagged for a closer look

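The change of Asic1 in HBEGF culture differed between ages: it was 0.64 in P7 cells and 2.43 in P1 cells, a difference of -1.79 ± 0.31 (SE) on the log2 scale (limma adjusted p = 0.0106). It was called under each of the 4 other settings and with each of its 12 arrays left out in turn, and its size lay between -2.07 and -1.04, the smallest with all probe sets averaged. On the other probe sets of Asic1 the difference was -1.63, -0.96 and 0.22, of which the first was called (limma adjusted p = 0.0391).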

How the results depend on the processing

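Of 797 member values with a test under an alternative, 792 kept their side of the call, 1 was no longer called, 4 were newly called and 0 called values changed sign. Most of the 797 values, with all those of Scn1a, Scn2a and Scn3a, were called in neither setting, so the number kept says little about the calls. Among values called in neither setting, 37 changed sign. Averaging a gene's probe sets gave 0 calls in HBEGF P7 cultures against fresh P7 cells, where Scn2b fell to 0.98 because its dim probe set entered the mean, and 2 calls in serum P7 against MD cultures, where Scn3b reached -1.06. In HBEGF P1 cultures against fresh P1 cells, Scn2b brought the calls to 2 with the replicate block (adjusted p = 0.0353) and to 2 without dim probe sets (adjusted p = 0.0433, with fewer probe sets tested). Leaving out 1 array moved the calls in serum P7 against HBEGF P7 cultures between 1 and 2, the second being Asic1 without HBEGF P7 replicate 3. The replicate block changed no other call of the 7 genes, in comparisons with paired numbers or without. The filter on dim probe sets removes Scn1a, Scn2a and Scn3a, so they have no value there. Quantile normalization changed no call of the 7 genes. Of 320 calls of listed genes, markers included, 78 were lost without some array and 4 with the block.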
